A study of Mus musculus with 6 samples.

Results

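The mitochondrial gene expression machinery is the set of nuclear-encoded proteins that copy, transcribe and translate the mitochondrial genome. It is described here through 37 genes, matched by symbol in a table of 16423 gene symbols, and all 37 were found. By role they were 3 genes of mitochondrial DNA replication, 5 of transcription inside mitochondria, 2 nuclear regulators, 4 of RNA stability and decay, 7 translation factors and 16 mitochondrial aminoacyl-tRNA synthetases. RNA sequencing compared a Ybx1 knockdown with a control in C3H10T1/2 cells, an established mouse mesenchymal stem cell line driven towards brown adipocytes. The 3 siYBX1 libraries came from cells transfected with siRNAs against Ybx1, and the 3 siNC libraries from cells given control siRNA, with their genotype labelled WT. Cells of both groups spent 2 days in 0.5 mM IBMX, 1 µM dexamethasone, 850 nM insulin, 1 nM triiodothyronine, 125 nM indomethacin and 1 µM rosiglitazone, and then 2 days in triiodothyronine, insulin and rosiglitazone. Transfection was on day 4 of differentiation, and RNA was taken 48 h later. The labels do not say whether the libraries of a group came from separate cultures, and each p-value is therefore set against a spread that may be technical.

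Mitochondria keep a small circular genome that encodes only a few subunits of the respiratory chain, plus the rRNAs and tRNAs needed to make them. POLRMT, the mitochondrial RNA polymerase, starts transcription together with TFAM, which bends and packages the DNA, and TFB2M, which melts the promoter. The transcripts are long and are cut into pieces, which the LRPPRC and SLIRP complex protects and the degradosome of SUPV3L1 and PNPT1 breaks down. Brown adipocytes are known for dense mitochondria and depend on this machinery for respiration and heat production. YBX1, the protein targeted here, belongs to the cold shock domain family; it acts mostly on RNA and takes its name from the Y-box, an inverted CCAAT element found in promoters.

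Values are FPKM, the authors' reads per gene scaled by gene length and library total, so levels may be compared between genes. Ybx1 itself was at 59.3, 67.9 and 61.3 FPKM in siYBX1, against 135, 134 and 130 FPKM in siNC, a ratio of 0.473 between the means. The reads recovered from the table came to 31616671 to 35034608 in siYBX1 and 33817588 to 34893207 in siNC libraries. The library siNC replicate 1 stood apart from its group, with a chi-square per gene of 19.8 and 23.2 against the other siNC libraries, which differed from each other by 4.62, while pairs of siYBX1 libraries differed by 8.31 to 10.9. All 8 adipocyte markers were in the table, and their summed level was 2545 to 3009 FPKM in siYBX1 and 1997 to 2810 FPKM in siNC. Most of that sum was Fabp4 and Adipoq, Cebpa had a mean below 1 FPKM, and none of the 7 tested was called. Of the 7 brown adipocyte markers in the table, Dio2, Ppargc1a, Prdm16 and Elovl3 had means below 1 FPKM, and the sum was 141 to 215 FPKM in siYBX1 and 140.4 to 172 FPKM in siNC. The 6 smooth muscle and myofibroblast markers summed to 2011 to 2110 FPKM in siYBX1 and 577 to 647 FPKM in siNC, and all 4 that were tested rose, while Cnn1 and Myh11 had means below 1 FPKM. The 7 mesenchymal progenitor markers summed to 469 to 491 FPKM in siYBX1 and 510 to 531 FPKM in siNC, nearly all of it Ly6a, with Eng called lower and Cd34, Dpp4, Pi16 and Thy1 at means below 1 FPKM. The 4 leukocyte markers summed to 6.83 to 11.2 FPKM in siYBX1 and 10.9 to 24.4 FPKM in siNC. Nearly all of that sum was Cd68, with Ptprc, Adgre1 and Csf1r at means below 1 FPKM. The 3 endothelial markers in the table summed to at most 0.113 FPKM in siYBX1 and 0.136 FPKM in siNC, and no marker of these lists was at 0 in every library. The part these markers play in the changes described next was not tested. In whole-culture RNA, fewer cells of a type and less RNA per cell cannot be told apart.

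Few of these genes passed the test for a change after Ybx1 knockdown, and those that did were genes of transcription and of RNA stability and decay. Polrmt and Tfb2m, whose products start mitochondrial transcription, fell to 0.803 and 0.799 of their siNC means. Slirp and Pnpt1, whose products stabilise and degrade mitochondrial RNA, rose 1.36-fold and 1.20-fold. No replication gene, nuclear regulator, translation factor or mitochondrial tRNA synthetase passed the test. Of the genes that passed, only Tfb2m did so whichever library was left out. The test was limma on log2(FPKM + 1), two-sided, over the 10341 genes that averaged 1 FPKM or more, and a gene was called at a Benjamini-Hochberg adjusted p below 0.05. On this scale the fold changes of low genes are understated.

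Of the 37 genes, 36 passed the filter, and the exception was Nars2. The 4 calls were 2 lower and 2 higher and made up 11.1% of the 36 genes, whereas 20.6% of all genes tested were called, 11.1% lower and 9.54% higher. The median log2 fold change of the 36 genes was -0.03, against -0.01 over all genes tested, with 14 genes above 0 and 22 below. The 2 groups of libraries did not overlap for 12 of the 36 genes (33.3%), 7 lower and 5 higher in siYBX1. Over all genes tested they did not overlap for 40.9%, 21.9% lower and 19% higher. Both shares of these genes were thus below those of the whole table, which is a description and not a test. For 31 of the 32 genes not called, the 95% confidence interval of the log2 fold change lay within 0.5 of 0, and Lars2 was the exception. The median standard error over those 32 genes was 0.07. Scaling the values to TPM changed the balance of calls over all genes to 662 higher and 1573 lower, against 987 higher and 1145 lower on FPKM, and shifted the median log2 fold change of all genes by -0.05.

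**Figure D1:**
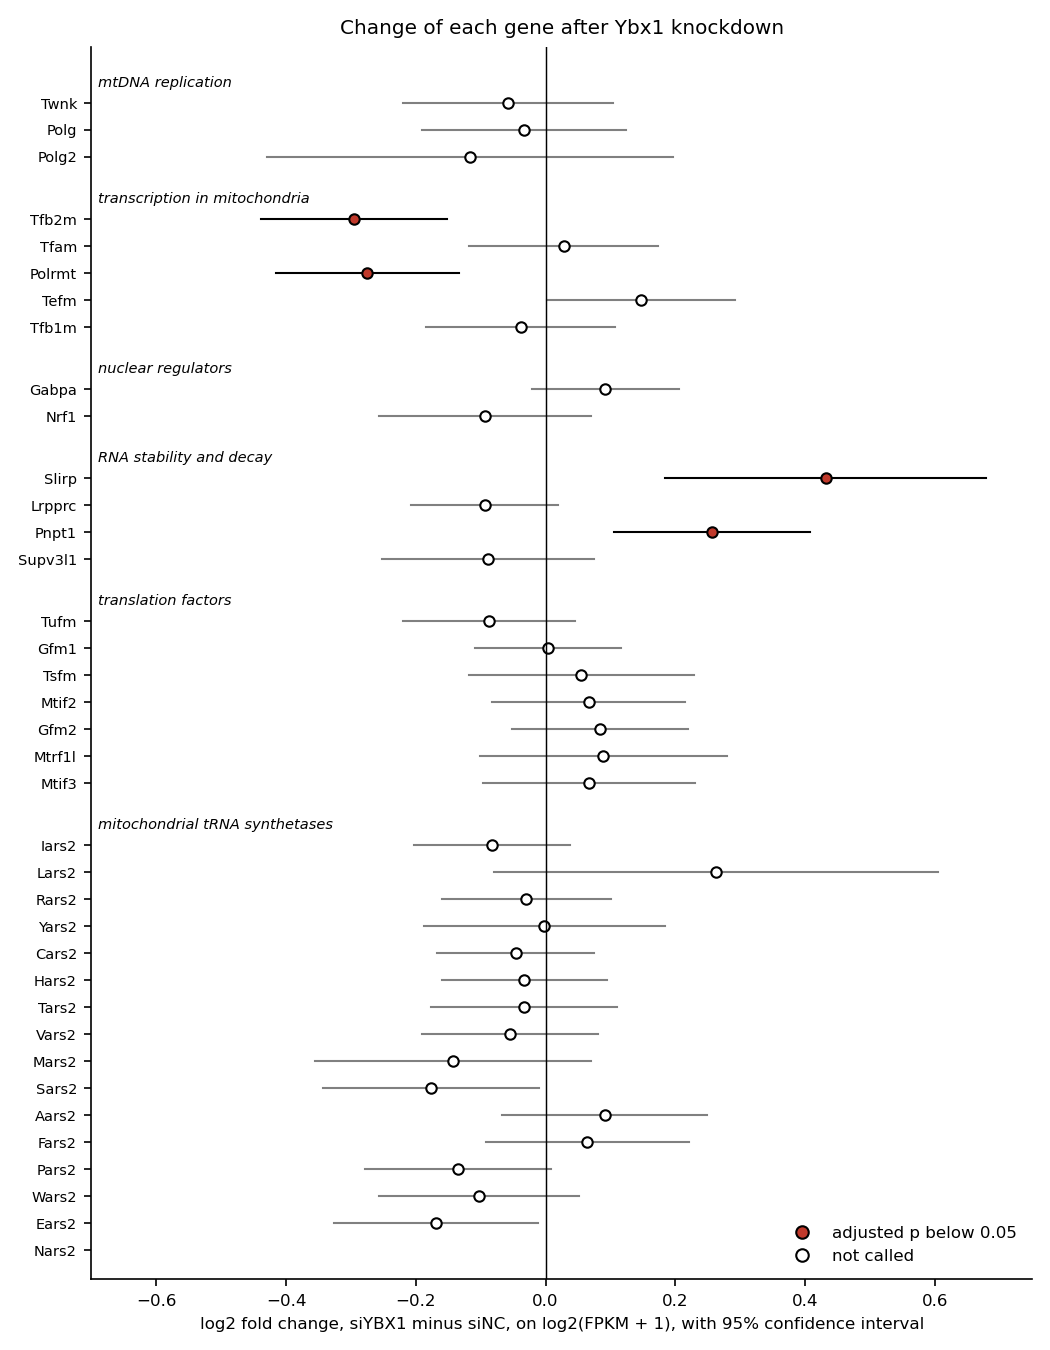
The log2 fold change of each gene, siYBX1 minus siNC on the log2(FPKM + 1) scale, is drawn as a point with its 95% confidence interval, by role and from high to low level within a role; filled points had an adjusted p below 0.05. Polrmt (-0.27), Tfb2m (-0.30), Slirp (0.43) and Pnpt1 (0.26) are filled, the interval of Lars2 runs from -0.08 to 0.60, and Nars2 has no point because it was not tested.

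The promoters of the 4 called genes, and of Tfb1m, the paralog of Tfb2m, show the start regions of the genes on which the results turn. Each runs 5′ to 3′ along the gene's strand from 250 bases before to 50 bases after the RefSeq start, on the mouse build GRCm38.p6. Of the 37 genes, 34 matched an entry in the RefSeq promoter table, with 37 promoters in all, and the genes without one were Mtif3, Hars2 and Pars2. Capitals mark matches, on either strand, to 4 motifs: the NRF1 motif (GCGCA, any base, then GCGC), the shorter NRF1 core TGCGCA, the ETS motif CCGGAAG bound by factors such as GABPA, and the Y-box core ATTGG, which reads CCAAT on the other strand. The promoter of Polrmt lies on the minus strand at chr10:79746532-79746831, that of Tfb2m on the minus strand at chr1:179546227-179546526, and that of Tfb1m on the minus strand at chr17:3557706-3558005. The promoter of Slirp lies on the plus strand at chr12:87443646-87443945, and that of Pnpt1 on the plus strand at chr11:29130494-29130793.
Polrmt: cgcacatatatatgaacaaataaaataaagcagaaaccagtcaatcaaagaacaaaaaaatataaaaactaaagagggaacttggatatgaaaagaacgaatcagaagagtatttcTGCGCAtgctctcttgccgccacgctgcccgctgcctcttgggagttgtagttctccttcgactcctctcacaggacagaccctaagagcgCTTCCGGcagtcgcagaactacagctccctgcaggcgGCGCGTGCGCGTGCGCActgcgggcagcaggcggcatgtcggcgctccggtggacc
Tfb2m: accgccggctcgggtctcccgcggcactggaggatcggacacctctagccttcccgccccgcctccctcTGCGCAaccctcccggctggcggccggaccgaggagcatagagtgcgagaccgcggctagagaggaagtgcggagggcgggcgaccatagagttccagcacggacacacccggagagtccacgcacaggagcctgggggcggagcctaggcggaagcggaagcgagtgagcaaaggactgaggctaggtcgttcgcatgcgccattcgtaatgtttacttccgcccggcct
Tfb1m: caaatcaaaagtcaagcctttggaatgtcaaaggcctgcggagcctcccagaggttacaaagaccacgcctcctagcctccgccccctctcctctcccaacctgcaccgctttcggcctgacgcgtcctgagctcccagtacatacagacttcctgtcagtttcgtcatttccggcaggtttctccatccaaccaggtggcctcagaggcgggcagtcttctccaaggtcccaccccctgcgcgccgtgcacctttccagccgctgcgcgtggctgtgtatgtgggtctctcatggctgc
Slirp: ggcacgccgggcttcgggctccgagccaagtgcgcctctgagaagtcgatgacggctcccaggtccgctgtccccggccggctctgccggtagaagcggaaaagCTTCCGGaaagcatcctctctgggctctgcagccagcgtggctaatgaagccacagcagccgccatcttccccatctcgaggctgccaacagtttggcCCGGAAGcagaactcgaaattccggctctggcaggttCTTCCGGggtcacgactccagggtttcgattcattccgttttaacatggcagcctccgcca
Pnpt1: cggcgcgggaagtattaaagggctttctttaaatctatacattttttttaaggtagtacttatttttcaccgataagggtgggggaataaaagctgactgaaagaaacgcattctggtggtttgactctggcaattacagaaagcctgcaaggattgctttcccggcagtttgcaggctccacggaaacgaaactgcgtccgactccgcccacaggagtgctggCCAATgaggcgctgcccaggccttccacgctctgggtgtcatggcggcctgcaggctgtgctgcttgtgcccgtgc

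The Polrmt window held 2 overlapping NRF1 matches that begin at bases 245 and 251 from the 5′ end, the later one at the start site itself. A core match at base 256 overlapped the second of these, another core match began at base 117, and an ETS match began at base 208. The Tfb2m window held 1 core match, at base 70, and the Tfb1m window held no match to the 4 motifs. In the Slirp window ETS matches began at bases 105, 203 and 240, and in the Pnpt1 window a Y-box match began at base 225. Over the 37 promoters of these genes the NRF1 motif was present in 10.8%, its core in 13.5%, the ETS motif in 40.5% and the Y-box core in 35.1%. Over the 10627 promoters of all genes tested the shares were 10.8%, 14.4%, 19.1% and 38.4%, in the same order, and over all 32851 promoters listed they were 4.60%, 7.76%, 8.86% and 37.4%. The NRF1 motif and its core can overlap, so those shares are not independent. A match describes the letters of the window and was not linked to binding or to the changes in level.

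Among the 5 transcription genes, Polrmt and Tfb2m fell and the remaining 3 did not pass the test. Polrmt was at 5.77, 5.61 and 6.23 FPKM in siYBX1 replicates 1 to 3, against 7.66, 6.93 and 7.33 FPKM in siNC replicates 1 to 3. Every siYBX1 library lay below every siNC library, the nearest values being 6.23 and 6.93 FPKM. Its means were 5.87 ± 0.321 FPKM in siYBX1 and 7.31 ± 0.367 FPKM in siNC (SD, n = 3 each), from 695 to 783 reads and 894 to 1005 reads per library. This was a log2 fold change of -0.27 (SE 0.06, 95% confidence interval -0.42 to -0.13, limma adjusted p = 0.0135). The call was lost without siYBX1 replicate 2, with a log2 fold change of -0.25 and a limma adjusted p of 0.0545.

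Tfb2m, the most abundant of the transcription genes, was at 10.6, 10.6 and 10.4 FPKM in siYBX1 and 12.1, 14.3 and 13.1 FPKM in siNC. The siYBX1 libraries were close together and all below the siNC libraries. The means were 10.5 ± 0.152 FPKM in siYBX1 and 13.2 ± 1.11 FPKM in siNC (SD, n = 3 each), from 915 to 1011 reads and 1133 to 1318 reads. On the log2 scale the difference was -0.30 (SE 0.06, 95% confidence interval -0.44 to -0.15, limma adjusted p = 0.0106). Of its 50-base stretches 31.9% are shared with the pseudogene Gm1818, so its level is uncertain to the extent that such reads were counted. Tfb2m was called under each of the 14 alternative settings, at a log2 fold change of -0.36 to -0.24 and a limma adjusted p of 0.00282 to 0.0443. Without siNC replicate 1, the library that stood apart, the change was -0.24 for Polrmt and -0.35 for Tfb2m, and both were still called.

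Of the other transcription genes, Tfb1m and Tfam were close to level. Tfb1m, whose product methylates the small mitochondrial rRNA, averaged 2.93 ± 0.176 FPKM in siYBX1 and 3.03 ± 0.0801 FPKM in siNC (log2 fold change -0.04, limma adjusted p = 0.719). Tfam averaged 8.61 ± 0.525 FPKM in siYBX1 and 8.43 ± 0.516 FPKM in siNC (0.03, limma adjusted p = 0.796). Tefm, the elongation factor of the polymerase, was at 7.02 to 7.21 FPKM in siYBX1 and 5.76 to 6.63 FPKM in siNC. Its groups did not overlap, yet its log2 fold change of 0.15 missed the threshold over all genes (limma adjusted p = 0.131). The ratio of Tfb2m to Tfb1m in FPKM was 3.61 ± 0.251 in siYBX1 and 4.34 ± 0.253 in siNC (SD, n = 3 each), and the groups did not overlap. The ratio of Polrmt to Tfam was 0.684 ± 0.0670 in siYBX1 and 0.872 ± 0.0966 in siNC, again without overlap. For each of these ratios the two-sided exact permutation test gave p = 0.1, the smallest that 3 against 3 libraries allow. They are 2 of 6 ratios of partner genes that were computed, and with that smallest p none could reach 0.05.

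**Figure D2:**
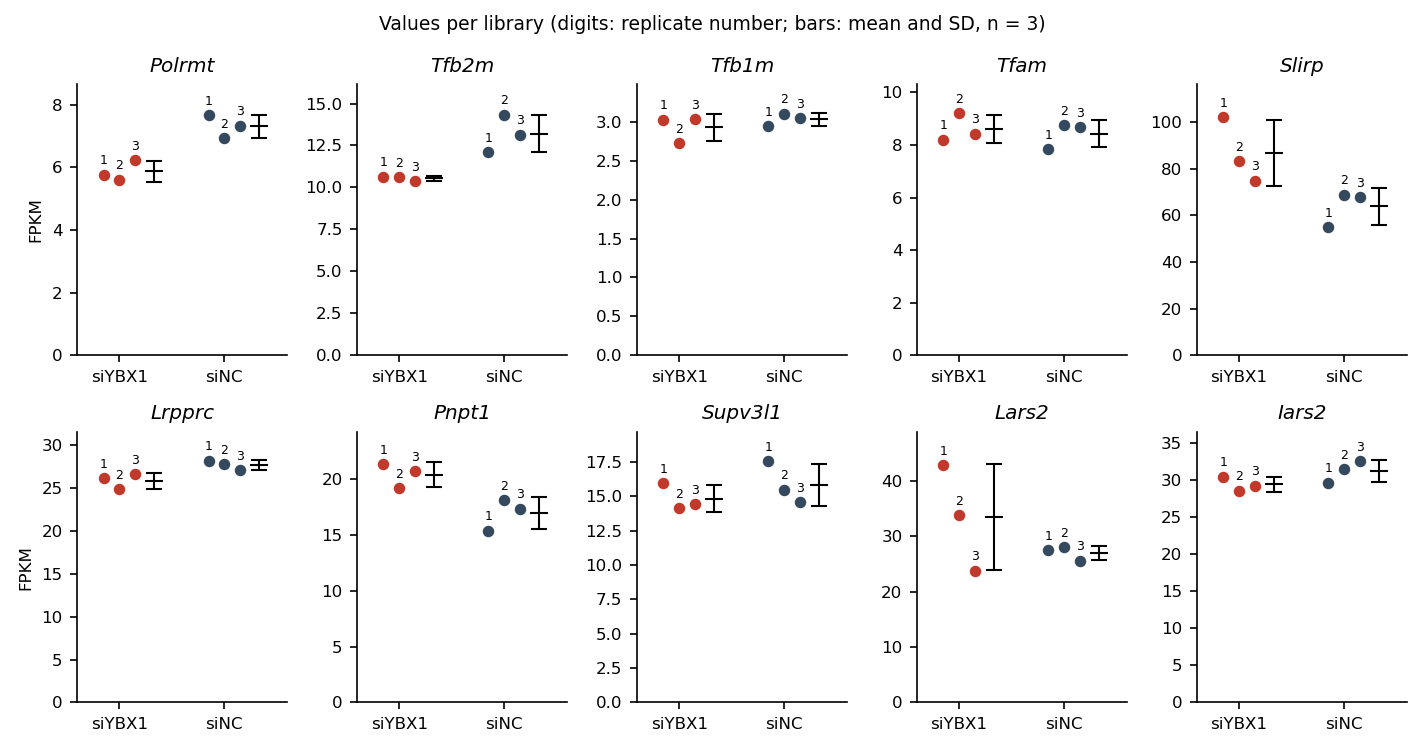
FPKM in each library is shown for 10 genes, siYBX1 libraries on the left and siNC libraries on the right of each panel, with digits for the replicate number and bars for the mean and SD (n = 3). Polrmt and Tfb2m lie lower and Slirp and Pnpt1 higher in every siYBX1 library than in any siNC library, while Lars2 spans 23.8 to 42.9 FPKM in siYBX1.

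Among the 4 genes of RNA stability and decay, Slirp and Pnpt1 rose while their partners Lrpprc and Supv3l1 did not pass the test. Slirp encodes a small RNA-binding protein that forms a complex with LRPPRC and protects mitochondrial mRNAs. By its mean over all libraries it was the most abundant of the 37 genes, although Tufm was above it in siNC (71.6 and 63.8 FPKM). Slirp was at 102, 83.1 and 74.8 FPKM in siYBX1 and 54.8, 68.7 and 67.8 FPKM in siNC. The groups did not overlap, the nearest libraries being siYBX1 replicate 3 and siNC replicate 2. The means were 86.7 ± 14.0 FPKM in siYBX1 and 63.8 ± 7.81 FPKM in siNC (SD, n = 3 each), from 1045 to 1367 reads and 798 to 1003 reads. The log2 fold change was 0.43 (SE 0.11, 95% confidence interval 0.18 to 0.68, limma adjusted p = 0.0213). Of the 50-base stretches in its annotated transcripts (GENCODE vM21, GRCm38), 89.5% also lie in Snw1, a neighbour on the opposite strand. Snw1 was at 56.8, 52.0 and 51.4 FPKM in siYBX1 and 47.6, 48.2 and 46.5 FPKM in siNC. That share is over all annotated Slirp transcripts together, while the gene length recovered from the FPKM values was short, at 0.122 of the median. How much of the counted stretch also lies in Snw1 was not determined. Strand use in counting is not given in the sources used here, so reads of Slirp and Snw1 may be mixed and the value of Slirp is uncertain. Leaving out siYBX1 replicate 1, the highest library, gave 0.31 with a limma adjusted p of 0.0687, and leaving out siYBX1 replicate 2 gave 0.46 with 0.0514.

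Pnpt1 encodes polynucleotide phosphorylase, the nuclease of the mitochondrial degradosome. It was at 21.4, 19.2 and 20.7 FPKM in siYBX1, against 15.4, 18.1 and 17.4 FPKM in siNC. The lowest siYBX1 library, replicate 2, lay just above the highest siNC library, also replicate 2. The means were 20.4 ± 1.10 FPKM in siYBX1 and 17.0 ± 1.41 FPKM in siNC (SD, n = 3 each), from 2128 to 2160 reads and 1674 to 1939 reads. That gave a log2 fold change of 0.26 (SE 0.07, 95% confidence interval 0.11 to 0.41, limma adjusted p = 0.0243). The call was lost without siYBX1 replicate 1 (0.23, limma adjusted p = 0.0905) and without siYBX1 replicate 3 (0.25, limma adjusted p = 0.0707). When all 16423 genes entered the fit, the limma adjusted p was 0.0803 for Pnpt1 and 0.115 for Slirp. Without siNC replicate 1 both were called, at 0.19 for Pnpt1 and 0.33 for Slirp.

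Lrpprc, the partner of SLIRP, was at 26.1, 24.8 and 26.6 FPKM in siYBX1 and 28.2, 27.8 and 27.0 FPKM in siNC. Its siYBX1 libraries were all lower, but the log2 fold change of -0.09 was not called (limma adjusted p = 0.213). Supv3l1, the helicase partner of PNPT1, averaged 14.8 ± 0.989 FPKM in siYBX1 and 15.9 ± 1.53 FPKM in siNC, with overlapping groups (-0.09, limma adjusted p = 0.419). The ratio of Slirp to Lrpprc was 3.35 ± 0.549 in siYBX1 and 2.31 ± 0.316 in siNC, and that of Pnpt1 to Supv3l1 was 1.38 ± 0.0519 in siYBX1 and 1.08 ± 0.177 in siNC (SD, n = 3 each). Neither ratio overlapped between the groups, and the exact permutation p was 0.1 for both. Both ratios were higher in each siYBX1 library than in any siNC library, as were Slirp and Pnpt1 themselves.

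**Figure D3:**
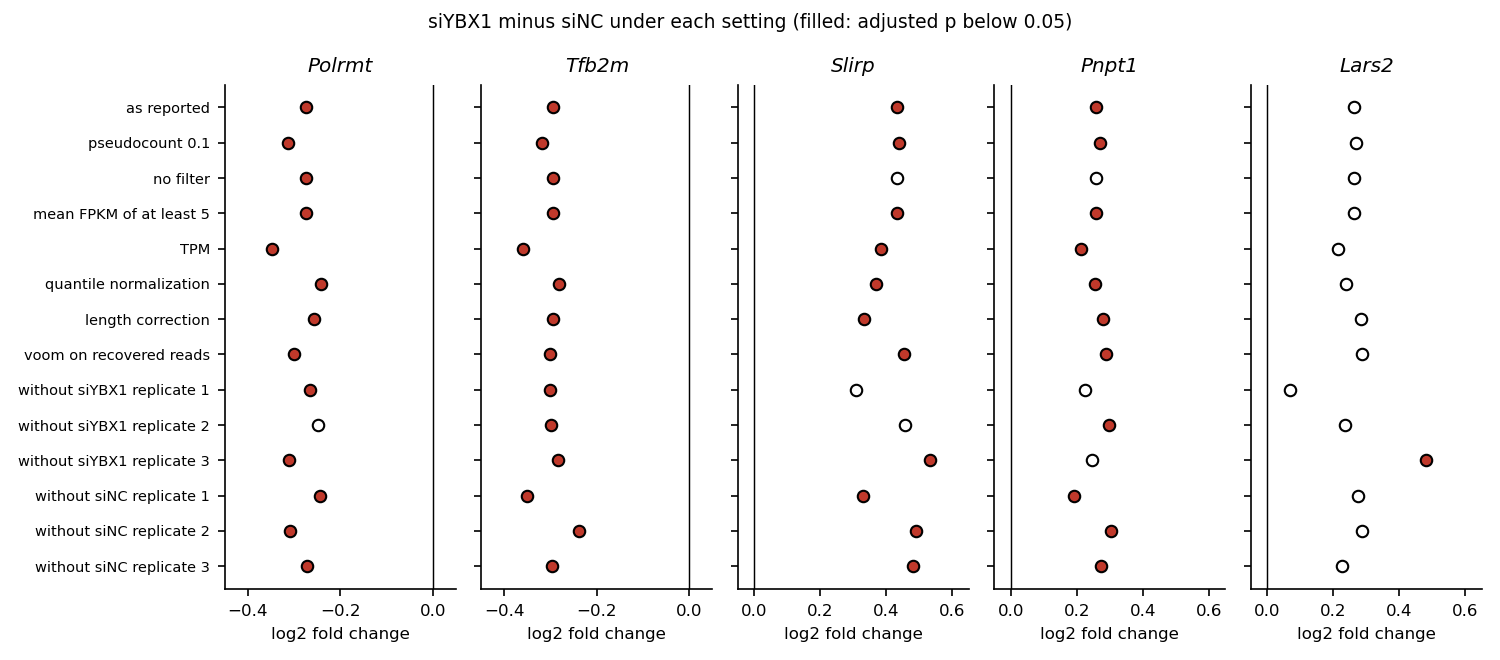
The log2 fold change, siYBX1 minus siNC, is drawn for 5 genes under each setting of the analysis except the replicate block. Filled points had an adjusted p below 0.05. Tfb2m is filled in every setting drawn and Polrmt in all but the one without siYBX1 replicate 2, whereas Lars2 is filled only without siYBX1 replicate 3. Slirp is not filled without a filter or without siYBX1 replicate 1 or 2, and Pnpt1 without a filter or without siYBX1 replicate 1 or 3.

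Gene length moved with the fold changes over the whole table. The genes tested were cut into 5 bins of nearly equal number by the length recovered from the FPKM steps. From the shortest to the longest bin the median log2 fold change was 0.08, 0.01, -0.01, -0.04 and -0.07. The share called higher was 18.7% in the shortest and 3.48% in the longest bin, and the share called lower was 6.33% and 14.3%. Slirp, whose recovered length was 0.122 of the median, lay in the shortest bin, Tfb2m in the next, and Polrmt and Pnpt1 in the middle bin. After a correction for length the log2 fold changes were 0.33 for Slirp, 0.28 for Pnpt1, -0.26 for Polrmt and -0.30 for Tfb2m, and all 4 were still called.

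The 3 replication genes were called in neither direction by limma on FPKM or by limma-voom on the recovered reads, and none had an unadjusted p below 0.05 in either fit. Twnk, the replicative helicase and the most abundant of the 3, was at 5.66, 5.74 and 6.13 FPKM in siYBX1 and 6.68, 5.48 and 6.27 FPKM in siNC. Its groups overlapped, with a log2 fold change of -0.06 (95% confidence interval -0.22 to 0.10). Polg, the catalytic subunit of the DNA polymerase, averaged 4.06 ± 0.272 FPKM in siYBX1 and 4.18 ± 0.294 FPKM in siNC. Its accessory subunit Polg2 averaged 2.88 ± 0.593 FPKM in siYBX1 and 3.23 ± 0.805 FPKM in siNC, from 119 to 197 reads and 129 to 207 reads (-0.12, 95% confidence interval -0.43 to 0.20). The ratio of Polg to Polg2 was 1.44 ± 0.221 in siYBX1 and 1.35 ± 0.328 in siNC (SD, n = 3 each), with overlap between groups (exact permutation p = 0.7).

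The 2 nuclear regulators switch on many genes of this machinery from the nucleus. Gabpa, the DNA-binding subunit of nuclear respiratory factor 2, was at 20.9, 20.5 and 21.0 FPKM in siYBX1 and 19.2, 20.2 and 18.9 FPKM in siNC. Its libraries did not overlap, but the log2 fold change of 0.09 was not called (limma adjusted p = 0.222). Nrf1, the gene of nuclear respiratory factor 1, averaged 1.67 ± 0.174 FPKM in siYBX1 and 1.84 ± 0.0798 FPKM in siNC (-0.09, limma adjusted p = 0.395). Neither had an unadjusted p below 0.05 by limma on FPKM or by limma-voom.

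None of the 7 translation factors was called by limma on FPKM or by limma-voom, and none had an unadjusted p below 0.05 in either. Their median log2 fold change was 0.07, and 6 of the 7 lay above 0. Tufm, the elongation factor that brings tRNAs to the ribosome, was at 65.1, 70.6 and 66.3 FPKM in siYBX1 and 66.5, 73.4 and 74.9 FPKM in siNC. It was the exception with a value below 0, at -0.09 (95% confidence interval -0.22 to 0.05), and its groups overlapped. Of the 50-base stretches of Tufm, 54.5% also lie in the pseudogene Gm9755. Tsfm, the exchange factor that recycles TUFM, averaged 18.5 ± 2.35 FPKM in siYBX1 and 17.7 ± 0.591 FPKM in siNC. Their ratio, Tufm to Tsfm, was 3.66 ± 0.291 in siYBX1 and 4.05 ± 0.376 in siNC (SD, n = 3 each, exact permutation p = 0.3).

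The elongation factor Gfm1, which moves the ribosome along, averaged 38.6 ± 1.23 FPKM in siYBX1 and 38.4 ± 1.13 FPKM in siNC, a log2 fold change of 0.00. Its relative Gfm2, which helps to recycle ribosomes, averaged 6.88 ± 0.203 FPKM in siYBX1 and 6.44 ± 0.350 FPKM in siNC, with no overlap between groups (0.08, limma adjusted p = 0.351). The initiation factors were also close between groups. Mtif2 averaged 7.34 ± 0.599 FPKM in siYBX1 and 6.96 ± 0.243 FPKM in siNC, and Mtif3 averaged 4.44 ± 0.0929 FPKM in siYBX1 and 4.20 ± 0.454 FPKM in siNC. Mtrf1l, a release factor, averaged 4.62 ± 0.437 FPKM in siYBX1 and 4.29 ± 0.524 FPKM in siNC. The confidence intervals of these 7 genes lay between -0.22 and 0.28.

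**Figure D4:**
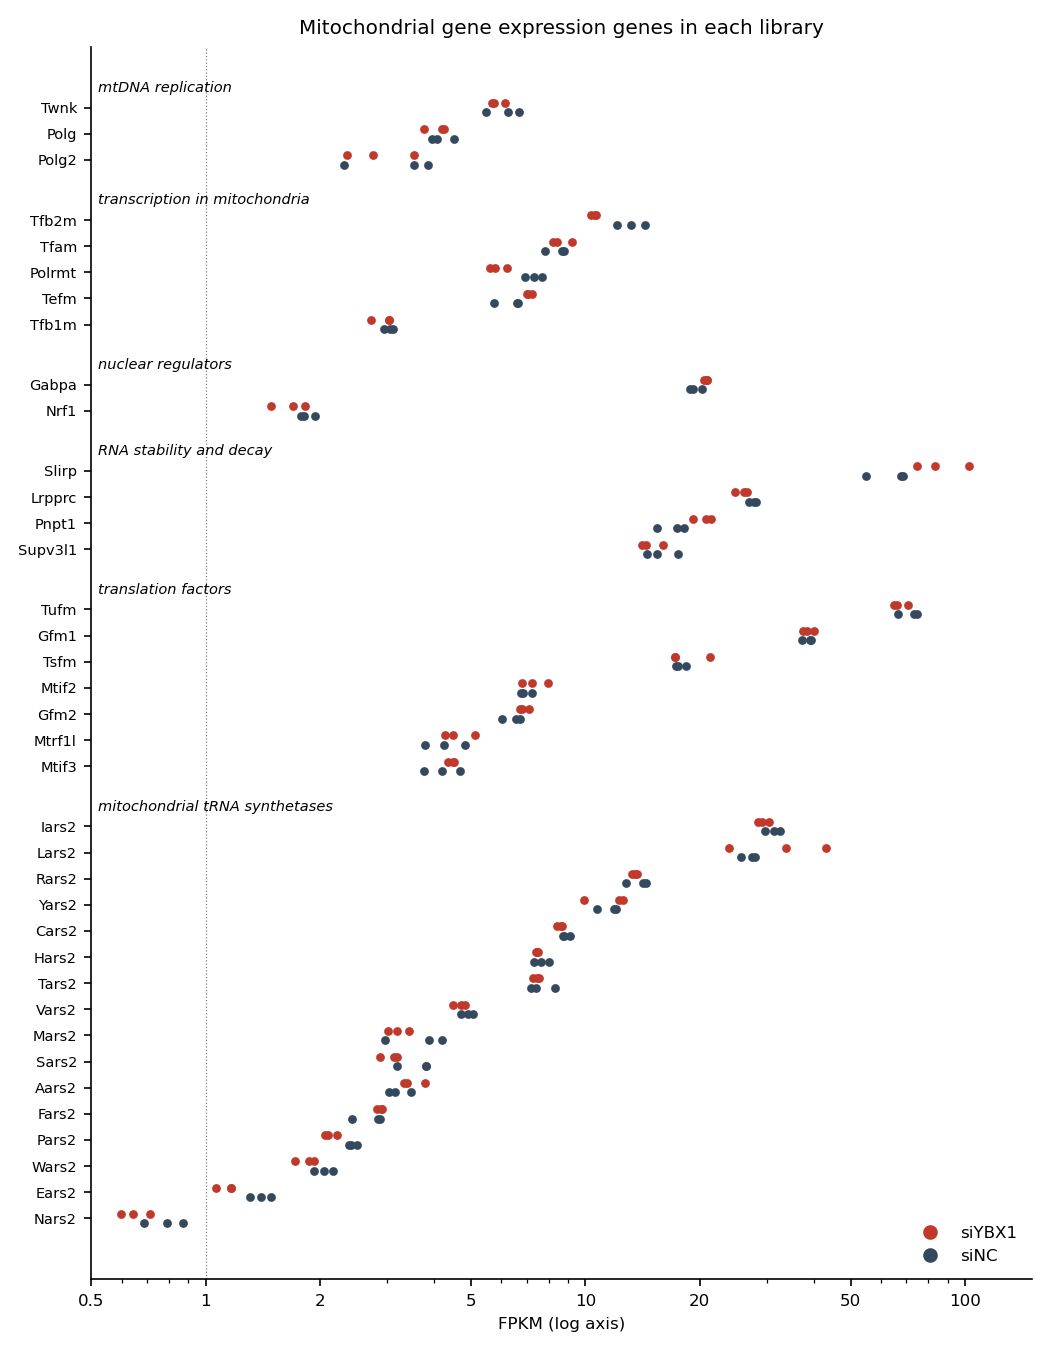
FPKM of the 37 genes is drawn on a log axis, with siYBX1 libraries above siNC libraries for each gene, and the dotted line marks the filter at a mean of 1 FPKM. Levels run from Nars2, at 0.598 to 0.871 FPKM, to Slirp, at 54.8 to 102 FPKM, and the groups overlap for most genes.

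The 16 mitochondrial tRNA synthetases charge the tRNAs of mitochondrial translation, and none of the 15 tested was called by limma. At an unadjusted p below 0.05, Ears2 and Sars2 were lower and none was higher. By limma-voom all 16 were tested and none was called, with Ears2 and Nars2 lower at an unadjusted p below 0.05. The median log2 fold change was -0.05, and 12 of the 15 lay below 0. Ears2, the glutamyl-tRNA synthetase, was at 1.17, 1.17 and 1.06 FPKM in siYBX1 and 1.49, 1.31 and 1.40 FPKM in siNC. Sars2, the seryl-tRNA synthetase, was at 2.87, 3.13 and 3.18 FPKM in siYBX1 and 3.80, 3.19 and 3.80 FPKM in siNC. All siYBX1 libraries were lower for both genes, with log2 fold changes of -0.17 (limma adjusted p = 0.115) and -0.18 (limma adjusted p = 0.118). Cars2 averaged 8.57 ± 0.158 FPKM in siYBX1 and 8.88 ± 0.212 FPKM in siNC, and Pars2 averaged 2.12 ± 0.0772 FPKM in siYBX1 and 2.43 ± 0.0581 FPKM in siNC. These 4 of the 15 synthetases tested (26.7%) had groups that did not overlap, each lower in siYBX1, beside 21.9% lower without overlap over all genes tested.

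Iars2, the isoleucyl-tRNA synthetase, was at 30.5, 28.6 and 29.3 FPKM in siYBX1 and 29.7, 31.5 and 32.5 FPKM in siNC. Its groups overlapped, at a log2 fold change of -0.08 (limma adjusted p = 0.301). By its mean over all libraries Iars2 was barely the most abundant of the 16, at 30.32 FPKM against 30.28 FPKM for Lars2. In siYBX1 Lars2 was above Iars2 (means of 33.5 and 29.4 FPKM). Lars2, the leucyl-tRNA synthetase, was at 42.9, 33.8 and 23.8 FPKM in siYBX1 and 27.5, 28.0 and 25.6 FPKM in siNC. The siYBX1 libraries lay on both sides of the siNC libraries, and their SD of 9.56 FPKM compared with 1.25 FPKM in siNC. These values came from 3261 to 5632 reads per siYBX1 library and 3714 to 3934 reads per siNC library. The difference on the log2 scale was 0.26 (SE 0.16, 95% confidence interval -0.08 to 0.60, limma adjusted p = 0.249). It was 0.48 and called without siYBX1 replicate 3 (limma adjusted p = 0.0144), and 0.07 without siYBX1 replicate 1 (limma adjusted p = 0.737).

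The methionyl-tRNA synthetase gene Mars2 averaged 3.21 ± 0.208 FPKM in siYBX1 and 3.68 ± 0.630 FPKM in siNC. It was not called (-0.14, limma adjusted p = 0.310), but was called lower without siNC replicate 1 (-0.26, limma adjusted p = 0.0380). Nars2, the gene below the filter, averaged 0.652 ± 0.0578 FPKM in siYBX1 and 0.783 ± 0.0910 FPKM in siNC, from 296 to 391 reads and 365 to 476 reads. Its groups overlapped. The synthetases above 10 FPKM besides Iars2 and Lars2 were Rars2, with 13.5 ± 0.212 FPKM in siYBX1 and 13.8 ± 0.867 FPKM in siNC, and Yars2, with 11.6 ± 1.43 FPKM in siYBX1 and 11.5 ± 0.716 FPKM in siNC. Hars2 averaged 7.46 ± 0.0391 FPKM in siYBX1 and 7.65 ± 0.344 FPKM in siNC, and Tars2 averaged 7.43 ± 0.144 FPKM in siYBX1 and 7.64 ± 0.601 FPKM in siNC. These 4 genes had log2 fold changes between -0.03 and 0.00. Vars2 averaged 4.67 ± 0.181 FPKM in siYBX1 and 4.89 ± 0.175 FPKM in siNC, and Wars2 averaged 1.84 ± 0.107 FPKM in siYBX1 and 2.04 ± 0.118 FPKM in siNC. The synthetases with values above 0 besides Lars2 were Aars2, with 3.50 ± 0.245 FPKM in siYBX1 and 3.22 ± 0.228 FPKM in siNC, and Fars2, with 2.88 ± 0.0481 FPKM in siYBX1 and 2.72 ± 0.249 FPKM in siNC. None of these 8 genes was called in any alternative.

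The cytosolic tRNA synthetases, most of which charge tRNAs only for translation outside mitochondria, gave a comparison within the same enzyme family. The list is not purely cytosolic, since some of its genes, Kars among them, also encode the mitochondrial enzyme. Of the 20 tested, 5 rose (25%) and none fell, by limma as by limma-voom. Over all genes tested by limma 20.6% were called, 9.54% higher and 11.1% lower. At an unadjusted p below 0.05, 6 were higher by limma and 8 by limma-voom, and none was lower by either. The number higher was 3 on TPM and 2 under quantile normalization. Nars averaged 99.9 ± 2.55 FPKM in siYBX1 and 78.0 ± 1.27 FPKM in siNC (log2 fold change 0.35, limma adjusted p = 0.00106). Rars averaged 61.1 ± 2.25 FPKM in siYBX1 and 49.3 ± 1.92 FPKM in siNC (0.30, limma adjusted p = 0.00379). Kars and Hars rose by less, with log2 fold changes of 0.22 (limma adjusted p = 0.0197) and 0.20 (limma adjusted p = 0.0316). The median over the 20 genes was 0.10. The count of 5 was 2 without siYBX1 replicate 1, siYBX1 replicate 2 or siNC replicate 3, 3 without siNC replicate 2 and 8 without siNC replicate 1. Kars was not called without siYBX1 replicate 1, siYBX1 replicate 2 or siNC replicate 3 (adjusted p of up to 0.0845), and Hars without these or siNC replicate 2 (up to 0.122). Both lost their calls under quantile normalization as well, and Hars also on TPM and without a filter (adjusted p of 0.0597 to 0.0788). Nars and Rars were called under each of the 14 alternative settings.

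The genes were also set in pairs that charge the same amino acid. In 16 of 17 pairs the cytosolic gene was the more abundant, with a ratio of FPKM over all libraries between 0.952 for Iars to Iars2 and 124 for Nars to Nars2, and a median of 6.10. In 12 of the 16 pairs with both genes tested, the cytosolic gene had the higher log2 fold change. Some pairs share a gene, since Eprs charges both glutamate and proline and Fars2 is set against both subunits of its cytosolic counterpart. The difference between the families was described through these counts and was not tested.

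**Figure D5:**
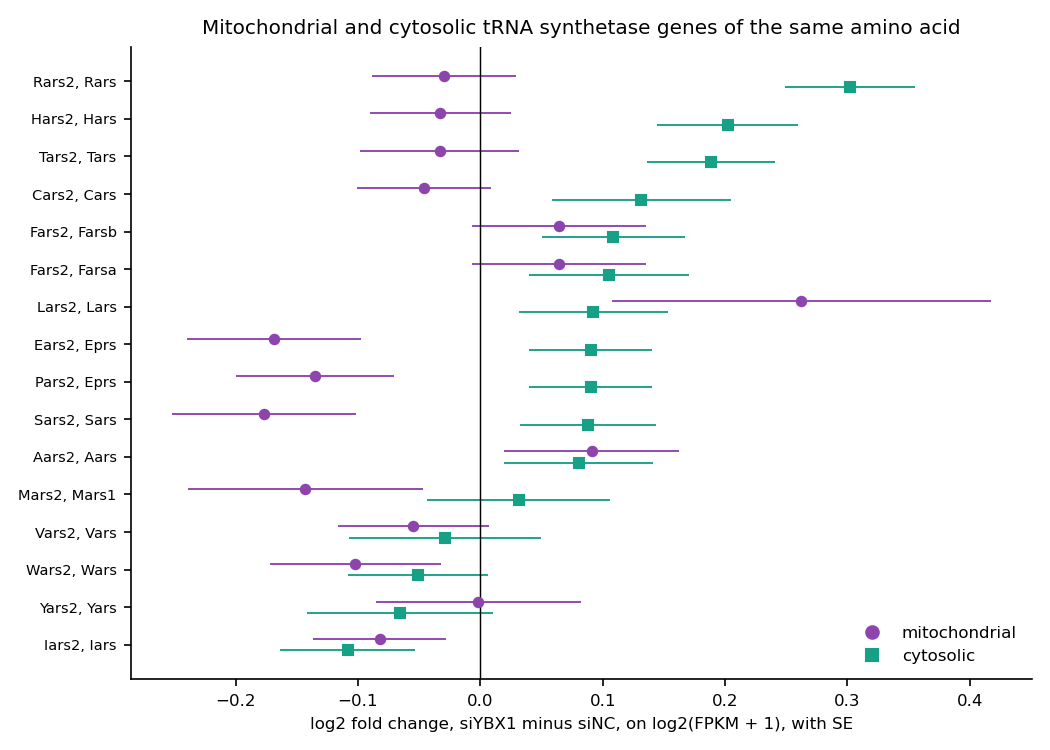
For each amino acid, the log2 fold change of the mitochondrial gene (circle) and of its cytosolic counterpart (square), siYBX1 minus siNC, is drawn with its SE. The cytosolic point lies to the right in 12 of 16 pairs, as for Rars at 0.30 beside Rars2 at -0.03, and to the left for Lars, Aars, Yars and Iars.

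Another 93 genes of mitochondrial DNA maintenance, transcription termination, RNA processing, RNA modification and ribosome assembly were followed as the rest of the pathway, of which 92 were in the table and 88 were tested. Of these, 4 were called higher and 5 lower (10.2%, beside 20.6% of all genes tested), and their median log2 fold change was -0.03. On TPM 2 were higher and 8 lower, and without a filter 2 were higher and 2 lower. Top1mt, the mitochondrial topoisomerase, averaged 3.73 ± 0.170 FPKM in siYBX1 and 4.97 ± 0.235 FPKM in siNC (log2 fold change -0.34, limma adjusted p = 0.00568). Nsun3, which methylates the mitochondrial methionine tRNA, averaged 4.18 ± 0.362 FPKM in siYBX1 and 5.55 ± 0.384 FPKM in siNC (-0.34, limma adjusted p = 0.0104). Mterf4, which works in ribosome assembly, averaged 11.9 ± 0.830 FPKM in siYBX1 and 9.55 ± 0.174 FPKM in siNC (0.29, limma adjusted p = 0.00903). Rexo2, an exonuclease that clears short RNAs, averaged 106 ± 6.97 FPKM in siYBX1 and 87.7 ± 2.55 FPKM in siNC (0.27, limma adjusted p = 0.0106). These 4 genes were called whichever library was left out, but Nsun3 was not called without a filter (limma adjusted p = 0.0537).

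The remaining 5 calls depended on single libraries and on the processing, and all 5 were lost without a filter (limma adjusted p of 0.0597 to 0.120). The pseudouridine synthase gene Pus1 (-0.25, limma adjusted p = 0.0206) was not called without siYBX1 replicate 1 or siNC replicate 3, at adjusted p of up to 0.0789. Osgepl1, a tRNA modification gene (-0.26, limma adjusted p = 0.0386), was not called without siYBX1 replicate 1, siYBX1 replicate 3, siNC replicate 2 or siNC replicate 3 (up to 0.137). Fastkd1 (-0.22, limma adjusted p = 0.0497) was called only when siYBX1 replicate 2 was the library left out, and otherwise reached up to 0.138. The tRNA methyltransferase gene Trmt5 (0.19, limma adjusted p = 0.0498) and the ribosome assembly gene Mtg1 (0.18, limma adjusted p = 0.0484) were called only when siNC replicate 2 was left out, with adjusted p of up to 0.119 and 0.165. Osgepl1 and Fastkd1 were also not called under quantile normalization, Trmt5 and Mtg1 on TPM, Fastkd1 and Mtg1 with the length correction or by limma-voom, and Fastkd1 with a pseudocount of 0.1. The number lower was 2 without siYBX1 replicate 1 or siNC replicate 3 and 3 without siYBX1 replicate 3. The number higher was 2 without siYBX1 replicate 1, siYBX1 replicate 2, siNC replicate 1 or siNC replicate 3.

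The 78 mitochondrial ribosomal protein genes were counted as the machine that the translation factors and synthetases serve. Of these, 16 rose and 2 fell (23.1%), and the median log2 fold change was 0.11. Beside this, 20.6% of all genes tested were called, 9.54% higher and 11.1% lower. Both on TPM and with the length correction, 9 rose and 4 fell, and without a filter 8 rose and 1 fell. The number higher was 8 without siYBX1 replicate 1, 9 without siYBX1 replicate 2 and 10 without siNC replicate 1. The number lower was 0 without siYBX1 replicate 1, siYBX1 replicate 3 or siNC replicate 2, 1 without siYBX1 replicate 2 or siNC replicate 3, and 3 without siNC replicate 1.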

How the data were processed

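Each library was made from 1.3 µg of Trizol-extracted total RNA, per the labels' protocols. The tools fastp, HISAT2 and HTSeq and the build GRCm39 appear in the submitters' processing notes with neither versions nor roles. The authors deposited 1 table of FPKM values for 16423 gene symbols in 6 columns, named con and si with a number, which were matched to siNC and siYBX1 by those names. Strandedness and the handling of reads shared with pseudogenes or paralogs are not given in the sources used here, so values of genes with such copies are uncertain. Slirp, Tfb2m and Tufm are among them, by 50-base stretches shared with other GENCODE vM21 transcripts on either strand. Smaller shares were found for other genes of the set, among them Mtif3 (25%), Iars2 (22.7%) and Twnk (12.4%). Polrmt and Pnpt1 shared none. Genes of the mitochondrial genome and Ucp1 were not analysed here.

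Genes that averaged 1 FPKM or more were fitted with limma 3.58.1 in R 4.3.3 on log2(FPKM + 1), with an intensity trend and no covariate, and p-values were adjusted over all 10341 genes tested. Each gene's values were whole multiples of what 1 read is worth, within 0.01 reads, for 16423 of 16423 genes. The smallest whole numbers that fit were taken as reads, which understates reads and length for a gene whose reads share a divisor. They gave the depth, the read ranges, the lengths and 1 alternative fit with limma-voom (12177 genes that averaged 10 reads or more). This fit made 1264 calls higher and 1243 lower, against 987 higher and 1145 lower on FPKM. The fit and the recovery of reads were tested on simulated data. Promoter sequences came from RefSeq tables of GRCm38.p6, another build than that of the processing notes, and were matched by symbol. Tables and plots were made with Python 3.11.15, pandas 2.3.3, scipy 1.17.1 and matplotlib 3.10.9.

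The genes, the lists and the tests were chosen with earlier results of these data known, so no p-value was adjusted over a list alone. Every gene of the set is named. The value in every library is given for called genes, for those whose call changed with the scaling, and for the most abundant gene of each role. Of the other pathway genes and the cytosolic synthetases, called genes are named, at most 4 of each list (the other pathway genes form 5 lists), by the size of their log2 fold change. Ears2, Sars2, Lars2, Lrpprc and Mars2 were singled out after their values were seen. The alternatives were a pseudocount of 0.1, no filter, a filter at a mean of 5 FPKM, TPM, quantile normalization, a length correction by loess, limma-voom, a replicate block and leaving out each library.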

Additional observations from a re-analysis of the deposited data

How the results depend on the processing

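Over 490 values of single genes under the 14 alternatives, 458 kept their sign and their side of the threshold, and 8 of the 36 genes changed sign in at least 1 alternative, none of them a called gene. Under quantile normalization the log2 fold change was 0.018 for Polg, 0.025 for Tfb1m, -0.028 for Gfm1 and 0.013 for Yars2. With the length correction it was 0.033 for Polg, -0.00070 for Gfm1 and -0.022 for Tsfm. On TPM it was -0.020 for Tfam and -0.047 for Gfm1, and by limma-voom it was 0.017 for Yars2. Leaving out each library gave ranges across 0 for Polg (-0.065 to 0.012), Tfam (-0.018 to 0.058), Gfm1 (-0.020 to 0.024), Tsfm (-0.042 to 0.10), Rars2 (-0.079 to 0.0014), Tars2 (-0.070 to 0.023) and Yars2 (-0.058 to 0.096). The number of the 37 genes called higher was 0 without a filter and 0 to 2 without each library, and the number lower was 1 to 3 without each library. On TPM their median log2 fold change was -0.085. Of the other mitochondrial gene expression genes, the number lower was 2 without a filter, 2 at a mean of 5 FPKM, 8 on TPM and 2 to 6 without each library, and the number higher was 2 without a filter, 2 on TPM and 2 to 4 without each library. Of the cytosolic synthetases, 3 were higher on TPM, 2 under quantile normalization and 2 to 8 without each library. Of the mitochondrial ribosomal protein genes, 8 were higher without a filter, 9 on TPM, 9 with the length correction and 8 to 15 without each library. Of these, 1 was lower without a filter, 4 on TPM, 4 with the length correction, 1 by limma-voom and 0 to 3 without each library. The causes were not tested. The fit without a filter tested more genes and also estimated its intensity trend with the low genes included. Fits without a library had fewer samples.

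Same-numbered libraries of siYBX1 and siNC deviated from their group means with correlations of -0.31, -0.13 and -0.25. Libraries with different numbers gave -0.13 to 0.26. The numbers were not treated as pairs, but with 3 libraries a group these values cannot settle whether libraries were paired. With a replicate block, 607 genes were called higher and 739 lower over all genes, and of the 37 genes 1 was higher and 2 lower. In that fit Pnpt1 had a limma adjusted p of 0.0588. The replicate block gave 2 higher and 2 lower of the other mitochondrial gene expression genes, 2 higher of the cytosolic synthetases, and 9 higher and 0 lower of the mitochondrial ribosomal protein genes. Depth limits the low genes: Polg2 and Nars2 rest on 119 to 476 reads per library, and with 3 libraries a group an exact permutation test cannot go below 0.1.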
